A study of Mus musculus with 2 samples.

Results

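A set of 10 Notch pathway genes was followed in single cells of E9.5 mouse embryos, taken from the region that gives rise to the cardiac neural crest. The 10 genes, of 18131 with values, are the ligands Dll1, Dll3 and Jag1, the receptors Notch1, Notch2 and Notch3, the glycosyltransferase Lfng, and the target genes Hes1, Hes5 and Hey1. They were chosen by name from the pathway with earlier results of these libraries in view, among them a lower Lfng level in neural cells of the KO library, so differences between the libraries are given as a description. The study compared 2 libraries, 1 per genotype. WT embryos were Prdm6+/+; Wnt1-Cre2; ZsGreen1 and KO embryos were Prdm6f/f; Wnt1-Cre2; ZsGreen1, all on the C57BL/6 strain and all carrying the Cre transgene and the ZsGreen1 reporter. Wnt1-Cre2 drives recombination in the Wnt1 lineage, which includes the dorsal neural tube and the neural crest, and no reporter transcript was analysed here, so which cells had lost Prdm6 was not measured. The tissue reached from the middle of the otic placode to the end of the fourth somite, no sorting of cells was described, and cells were not assigned to embryos here.

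Notch receptors are bound by Delta and Jagged ligands on a neighbouring cell. Binding lets ADAM proteases and then gamma-secretase cut the receptor, and the freed intracellular domain joins the DNA-binding protein RBPJ and Mastermind proteins in the nucleus to switch on Hes and Hey genes, which encode repressors. In the neural tube, cells with ligand move towards becoming neurons while Hes genes keep their neighbours as progenitors, and in vessels and the heart the same pathway takes part in arterial, valve and outflow tract development. Lfng encodes Lunatic fringe, a Golgi enzyme that adds a sugar to the receptors and alters which ligands they answer to.

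There were 20781384 UMIs in 11958 WT cells (median 1597 per cell) and 18936857 UMIs in 9765 KO cells (median 1703 per cell). The libraries shared 26 cell barcodes. Prdm6 itself was sparse, with 104 UMIs (5.00 CPM) in WT against 59 (3.12 CPM) in KO over cells of every lineage, and 3′ reads can come from a recombined allele as well as from an intact one. Levels are UMIs per 1000000 UMIs (CPM) of the cells named, with an exact Poisson interval of 95%, and log2 ratios are KO over WT with exact conditional intervals of 95%. Intervals cover counting error only. Because there was 1 library per genotype, the spread between embryos could not be seen, no test was made and no p-value is given. Genotype, library preparation and the exact extent of each dissection cannot be told apart. The authors saw batch effects between the conditions by eye in plots of the cells, and corrected their neighbour graph for these. Reads lie at the 3′ end of transcripts, so CPM is not divided by gene length.

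Cells were put in classes by marker lists that hold none of the 10 genes. A cell took a class, written X-like, when at least 3 markers of its list were detected and every other list had at least 2 fewer. Of the 17 lists, 6 gave a class with at least 50 cells in both libraries. There were 290 WT and 258 KO neural tube progenitor-like cells, 95 and 88 neuron-like cells, 151 and 104 migrating neural crest cell (NCC)-like cells, 452 and 345 endothelial-like cells, 445 and 183 erythroid-like cells, and 3505 and 3389 cardiac muscle-like cells. Genes outside the lists that led the classes included Sfrp2 and Zic5 in the neural class, Insm1 in neuron-like cells, Tfap2a in migrating NCC-like cells, Cd34 in endothelial-like cells and globin genes in erythroid-like cells. The cardiac class went against its name. It took 29.3% of WT and 34.7% of KO cells, and its cardiac markers summed to 13210 CPM in WT and 9482 CPM in KO, with 1023 and 979 CPM in erythroid-like cells. A stricter gate, chosen after this was seen, asked that the marker UMIs of a cell exceed the mean level of its library (Poisson p below 0.0001 and 100 times smaller than for any other list). It left 661 WT and 388 KO cardiac muscle-like cells with 39360 and 37770 CPM of the markers, and it separated 75 WT and 86 KO floor plate-like cells and 86 and 61 pharyngeal and splanchnic mesoderm-like cells. The stricter neural class held 80 WT and 57 KO cells. Values come from the first gate unless the stricter gate is named, and the cardiac, floor plate and mesoderm classes are described under the stricter gate.

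The start sites of Hes5 and Lfng are shown because these genes stood together in the neural tube progenitor-like cells described further on, and because theirs were the only windows among the members that held the letters searched. Of the 10 genes, 8 had an entry in the RefSeq promoter table (build GRCm38.p6), with 9 start sites in all, and Hes1 and Hey1 had none. The 250 bases before each start were searched for TGGGAA, the core of the RBPJ motif, and its reverse complement TTCCCA. Matches on either strand are in capitals, and they do not overlap. Hes5 lies on chromosome 4 and its window is chr4:154960673-154960922, plus strand. Lfng lies on chromosome 5, where the window before the annotated gene is chr5:140607091-140607319, plus strand, and the 21 bases between this end and the RefSeq start were left out of the print because they lie in the GENCODE gene.
Hes5: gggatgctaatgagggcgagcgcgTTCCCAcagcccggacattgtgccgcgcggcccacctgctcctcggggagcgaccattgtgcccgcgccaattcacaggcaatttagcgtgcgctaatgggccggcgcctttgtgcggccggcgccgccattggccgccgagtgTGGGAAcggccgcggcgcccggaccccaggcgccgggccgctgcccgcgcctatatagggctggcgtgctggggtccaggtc
Lfng: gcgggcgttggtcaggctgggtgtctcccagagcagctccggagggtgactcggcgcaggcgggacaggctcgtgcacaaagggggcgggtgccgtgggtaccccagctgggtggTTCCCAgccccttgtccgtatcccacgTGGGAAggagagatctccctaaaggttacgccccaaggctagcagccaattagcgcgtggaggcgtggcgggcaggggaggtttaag
Hes5 held the letters at positions -226 and -82 and Lfng at positions -135 and -108, counted from the RefSeq start to the first letter of the match. At least 1 match stood in 7094 of 32851 promoter windows of this length, or 21.6%, so that a match is common, and it is a description of letters and not of binding.

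Among the ligands, Dll3 was the gene with the narrowest distribution. Dll3 (chromosome 7, 28293553 to 28302238, minus strand, GRCm38 as all positions below) encodes a divergent Delta protein that acts inside the cell that makes it. In neuron-like cells it had 43 UMIs (256 CPM) in the WT library against 37 (183 CPM) in KO, and no other class had an interval that reached these in either library. It was detected in 32.6% of 95 WT neuron-like cells (interval 23.4% to 43.0%, median 1655 UMIs) and 31.8% of 88 KO cells (22.3% to 42.6%, median 2198 UMIs), and in 25.3% and 17.2% once thinned to 1000 UMIs. Erythroid-like cells, which should lack this neuronal gene, had a Dll3 UMI in 3 of 445 WT cells (0.674%, median 2055 UMIs) and in 0 of 183 KO cells (median 2507 UMIs), where a count of 0 allows up to 1.64%, taken as 3 cells of 183. The log2 ratio in neuron-like cells was -0.49 (-1.16 to 0.18), and -0.08 (-0.68 to 0.52) under the stricter gate. The neuron markers Tubb3 and Elavl3 and the gene Gdap1l1 had the profiles most like that of Dll3 over the 12 points of 6 classes and 2 libraries (Pearson r 0.990, 0.986 and 0.987).

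Dll1 (chromosome 17, 15367354 to 15376872, minus strand), the Delta ligand of nascent neurons and of the presomitic mesoderm, was sparse, with 408 UMIs over all WT cells (19.6 CPM) and 288 over all KO cells (15.2 CPM). The log2 ratio over all cells was -0.37 (-0.59 to -0.15). It was highest in neuron-like cells of both libraries, at 59.5 CPM from 10 UMIs in WT and 44.4 CPM from 9 UMIs in KO, with intervals that overlapped those of the next class. In migrating NCC-like cells it had 11 UMIs in WT and 1 in KO, a log2 ratio of -3.18 with an interval from -8.61 to -0.40. With the stricter gate these cells had 10 and 4 UMIs and a ratio of -1.19 (-3.32 to 0.60), so the interval then included 0.

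Cells with a Dll1 UMI were compared with the rest of the neural tube progenitor-like and neuron-like cells. There were 23 of 385 such cells in WT and 18 of 346 in KO. Neurod4, a neuronal transcription factor, is also a marker of the neuron-like class, and the part of the gate in its values was not tested. In WT Neurod4 was at 334 CPM (187 to 550) with Dll1 and 146 CPM (119 to 177) without it. In KO the values of 294 CPM (152 to 513) and 175 CPM (146 to 208) overlapped. Lfng was at 133 and 196 CPM in WT and KO cells with Dll1 and at 103 and 64.2 CPM in those without, and these intervals overlapped within each library.

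Jag1 (chromosome 2, 137081456 to 137116644, minus strand), the Jagged ligand of arch arteries, outflow tract and sensory placodes, had 1455 UMIs (70.0 CPM) in the WT library against 1177 (62.2 CPM) in KO, a log2 ratio of -0.17 (-0.28 to -0.06). Its highest class of the stricter gate was the pharyngeal and splanchnic mesoderm-like cells, with 22 UMIs (112 CPM) in the WT library against 27 (168 CPM) in KO, followed by cardiac muscle-like cells at 112 and 121 CPM and with overlapping intervals. Erythroid-like cells had 21.2 and 13.3 CPM. Higher values stood in 31 WT and 28 KO otic and epibranchial placode-like cells, too few for a comparison, at 323 CPM (211 to 473) and 196 CPM (114 to 314).

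**Figure D1:**
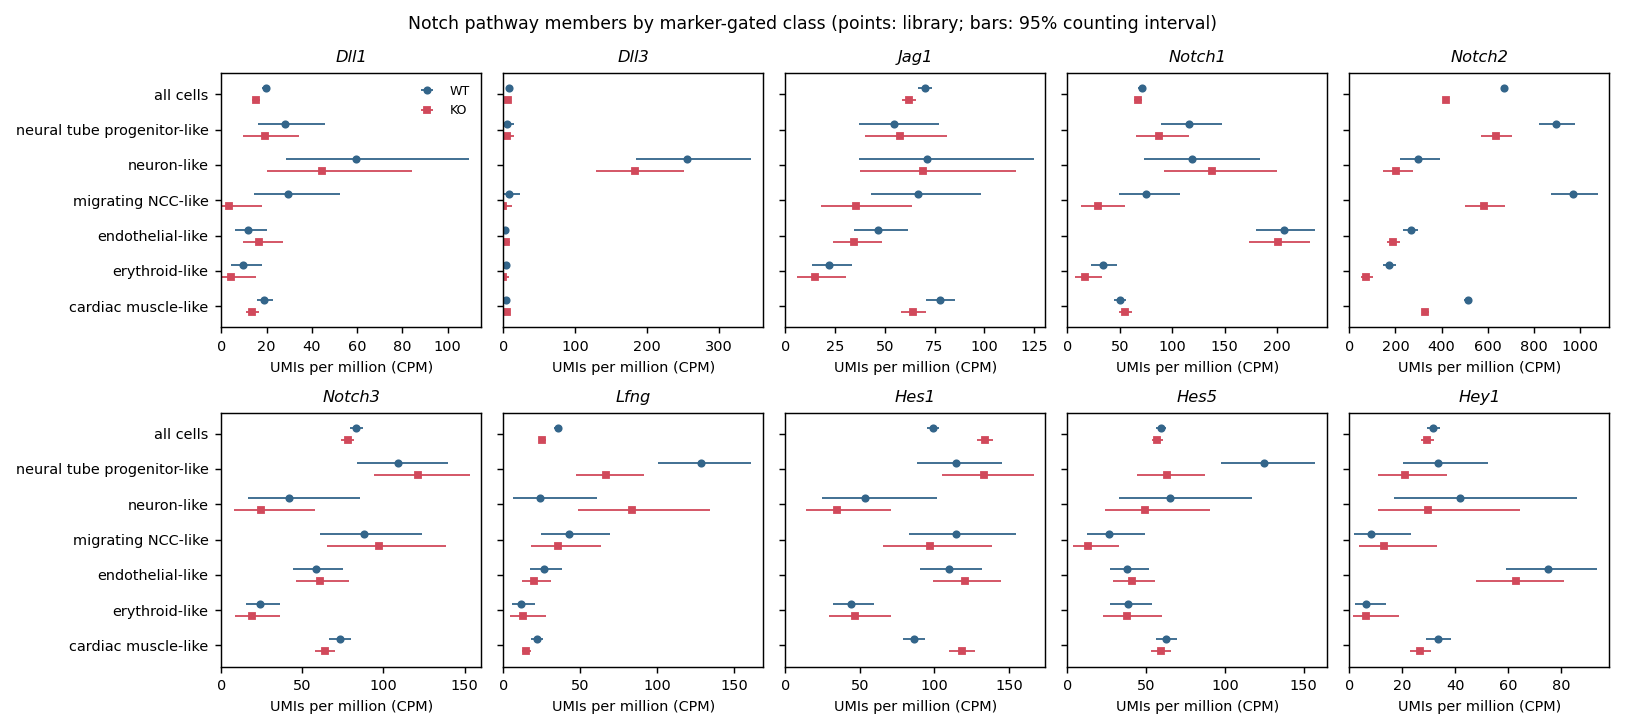
Levels of the 10 Notch pathway genes in CPM (horizontal axis of each panel, linear and from 0) in all cells and in the 6 classes of the first gate. Points are the WT (circles) and KO (squares) libraries and bars are exact Poisson intervals of 95%. Dll3 is highest in neuron-like cells at 256 and 183 CPM. Notch1 and Hey1 are highest in endothelial-like cells of both libraries, with intervals that overlap those of the next class.

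Of the receptors, Notch2 (chromosome 3, 98013527 to 98150361, plus strand) had by far the most UMIs and was the one member past 1.5-fold over all cells. It had 13965 UMIs (672 CPM) in the WT library against 7924 (418 CPM) in KO, and the log2 ratio was -0.68 (-0.72 to -0.64). Of the 10 genes 1 was thus lower in KO by 1.5-fold and 0 were higher. Among the 12909 genes with at least 50 UMIs, 3.87% were lower and 1.03% higher by that fold, and their median log2 ratio was -0.06. Scaled by a trimmed mean of log ratios, 2.97% were lower and 1.39% higher, and by a median of ratios 2.93% and 1.43%. Notch2 was detected in 47.5% of the WT cells against 38.5% in KO, or 38.1% against 25.3% after thinning. In erythroid-like cells the shares were 26.1% and 15.8%, or 13.6% and 6.04% after thinning.

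The Notch2 ratio lay below 0 in every class compared. It was below 0 in 6 of 6 classes, and its interval lay below 0 in 5 of them. Migrating NCC-like cells went from 364 UMIs (971 CPM) in WT to 180 (582 CPM) in KO, a ratio of -0.74 (-1.01 to -0.48). Endothelial-like cells went from 273 UMIs (265 CPM) to 182 (190 CPM), a ratio of -0.48 (-0.76 to -0.20). In neuron-like cells, with 50 and 41 UMIs, the ratio of -0.56 had an interval from -1.19 to 0.07. Erythroid-like cells, the class with the lowest level, went from 173 CPM (165 UMIs) to 74.2 CPM (35 UMIs), a ratio of -1.22 (-1.79 to -0.69). By the stricter gate the ratio was below 0 in 8 of 8 classes, with the interval below 0 in 7. The part that free RNA of the droplets or a difference between the library preparations has in this shift was not tested.

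Floor plate-like cells had the highest Notch2 level in CPM of the 8 stricter classes. They held 384 UMIs (2739 CPM) in the WT library against 320 (1667 CPM) in KO, a ratio of -0.72 (-0.94 to -0.50). These values stood above those of the next class, the pharyngeal and splanchnic mesoderm-like cells, at 1136 CPM in WT and 685 CPM in KO, with no overlap of intervals in either library. Fubp1 and Fasn had the profiles most like that of Notch2 over the 12 points (r 0.973 and 0.963).

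Notch1 (chromosome 2, 26457903 to 26516663, minus strand), the receptor of arterial endothelium and of neural progenitors, was highest in endothelial-like cells. Its intervals overlapped those of the next class in both libraries. Endothelial-like cells held 213 UMIs (207 CPM) in the WT library against 192 (201 CPM) in KO. The ratio there was -0.04 (-0.33 to 0.25), and over all cells, with 1471 and 1272 UMIs, it was -0.08 (-0.19 to 0.03). It was detected in 34.5% of WT and 39.4% of KO endothelial-like cells (median 2191 and 2773 UMIs), against 6.29% and 4.37% of erythroid-like cells. In migrating NCC-like cells it had 28 UMIs in WT and 9 in KO (-1.36, -2.63 to -0.24), and under the stricter gate 26 and 17 (-0.48, -1.46 to 0.45), again with an interval that then included 0.

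Notch3 (chromosome 17, 32120820 to 32166852, minus strand), known from mural cells of vessels and from neural progenitors, was close to even over all cells. It had 1726 UMIs (83.1 CPM) in the WT library against 1477 (78.0 CPM) in KO and a ratio of -0.09 (-0.19 to 0.01). In neural tube progenitor-like cells, its highest class of the first gate in both libraries, with intervals that overlapped the next class, it had 62 UMIs (109 CPM) in the WT library against 69 (121 CPM) in KO, and the ratio was 0.15 (-0.37 to 0.67). No class of either gate had an interval that lay to one side of 0. Cells without a class under the stricter gate, 81.52% of WT and 84.75% of KO cells, were at -0.15 (-0.26 to -0.04). Under the stricter gate floor plate-like cells were highest, at 157 and 141 CPM and again with overlap, and the ratio in the neural class was -0.50 (-1.56 to 0.50).

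Lfng (chromosome 5, 140607320 to 140615545, plus strand) reached its highest WT level in neural cells. Over all cells it had 744 UMIs (35.8 CPM) in the WT library against 476 (25.1 CPM) in KO, a ratio of -0.51 (-0.68 to -0.34). Neural tube progenitor-like cells held 73 UMIs (128 CPM, interval 101 to 161) in the WT library against 38 (66.6 CPM, interval 47.2 to 91.5) in KO. The WT interval lay above the KO interval, and the ratio was -0.95 (-1.55 to -0.36). Lfng was detected in 20.0% of 290 WT cells (median 1853 UMIs) and 13.2% of 258 KO cells (median 2102 UMIs), or 11.1% and 6.23% after thinning. In erythroid-like cells the unthinned shares were 2.25% and 2.73%, from 11 and 6 UMIs. Cells without a class held 463 UMIs in WT and 277 in KO, so most Lfng transcripts lay outside the gated classes.

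Under the stricter gate the level of the neural class was 231 CPM from 40 UMIs in WT and 73.0 CPM from 10 UMIs in KO, a ratio of -1.66 (-2.83 to -0.64). Floor plate-like cells had 23 UMIs (164 CPM) in the WT library against 16 (83.4 CPM) in KO, with a ratio of -0.98 (-1.995 to 0.006). In placode-like cells, of which there were 31 and 28, Lfng had 17 UMIs (211 CPM) in the WT library against 6 (69.2 CPM) in KO. Migrating NCC-like cells had 16 and 20 UMIs (0.45, -0.57 to 1.50), and endothelial-like cells 23 and 16 (-0.53, -1.54 to 0.46). Neuron-like cells had 14 and 16 UMIs (-0.12, -1.25 to 1.02), where the first gate had given 4 and 17 (1.82, 0.20 to 3.85).

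Hes5 (chromosome 4, 154960923 to 154962371, plus strand), a Notch target of neural progenitors, stood beside Lfng. In neural tube progenitor-like cells it had 71 UMIs (125 CPM) in the WT library against 36 (63.1 CPM) in KO, and the ratio was -0.98 (-1.60 to -0.39). The total over all cells was 1232 UMIs in WT and 1079 in KO, with a ratio of -0.06 (-0.18 to 0.06). The neural class was its highest in both libraries and under both gates, although with intervals that overlapped the next class. With 30 and 12 UMIs under the stricter gate, the ratio was -0.99 (-2.09 to 0.02). Hes5 was detected in 20.3% of WT and 12.8% of KO neural cells, or 10.0% and 7.39% after thinning, and in 8.09% and 9.84% of erythroid-like cells (2.99% and 1.65% after thinning). The unthinned KO share of neural cells (interval 8.97% to 17.5%) overlapped that of erythroid-like cells (5.93% to 15.1%).

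Within the neural class, 7 of the 10 genes had at least 50 UMIs. Of these, 2 (Lfng and Hes5) were lower in KO by 1.5-fold and 0 were higher. The Hes5 ratio was within 1.5-fold, at -0.40, with cells thinned to 1000 UMIs, and at -0.49 when a lead of 1 marker over the other lists was enough for a class. That of Lfng was -0.96 and -0.84 under these settings. Over the 4429 genes counted there, 5.83% were lower and 4.22% higher. Notch2, with 510 and 363 UMIs (897 and 637 CPM), had a ratio of -0.49 (-0.69 to -0.30). Notch1 (66 and 50 UMIs), Jag1 (31 and 33) and Hes1 (65 and 76) had ratios of -0.40, 0.09 and 0.22 with intervals that held 0. The range of all genes there was wide, with 5th and 95th percentiles at -0.61 and 0.56.

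**Figure D2:**
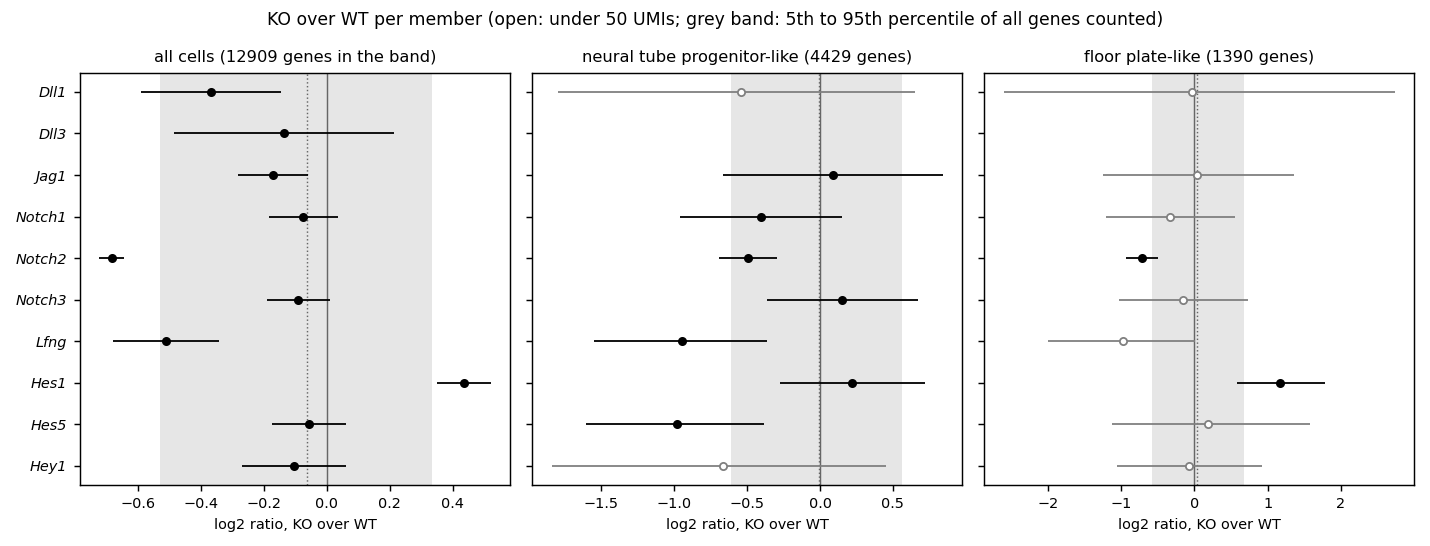
Log2 ratio of KO over WT (horizontal axis) for each member in all cells, neural tube progenitor-like cells (first gate) and floor plate-like cells (stricter gate), with exact conditional intervals of 95% as bars. Open points rest on fewer than 50 UMIs, the grey band spans the 5th to 95th percentile of the genes counted and the dotted line is their median. Notch2 at -0.68 over all cells, Lfng at -0.95 and Hes5 at -0.98 in neural cells, and Hes1 at 1.16 in floor plate-like cells are among the points outside the bands.

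Genes of axial level were also compared. The 5 posterior Hox genes with at least 50 UMIs were all lower in KO by 1.5-fold over all cells, beside 3.87% of all genes, and their list summed to 1478 WT UMIs against 567 in KO, at a ratio of -1.25 (-1.39 to -1.11). Hoxb9 went from 175 UMIs to 15. Hoxb7, with 63 and 38 UMIs, was at -0.60 (-1.22 to 0.01) and at -0.53 under the other scalings, so that 4 of the 5 were then lower by 1.5-fold. In neural tube progenitor-like cells the posterior list summed to 232 CPM in WT and 77.2 CPM in KO, beside 429 and 379 CPM for the list of anterior Hox genes. Of the 4 anterior genes counted there, 1 was lower by 1.5-fold, Hoxa2 with 34 and 16 UMIs (-1.09, -2.05 to -0.20). Most UMIs of the posterior list there were of Hoxb8, 107 of 132 in WT and 32 of 44 in KO. Hoxb8 was the 1 gene of the list with at least 50 UMIs, and the other posterior genes held 25 and 12 UMIs together. Of the 290 WT neural cells 53 had a posterior Hox UMI (18.3%, interval 14.0% to 23.2%), and of the 258 KO cells 22 had one (8.53%, interval 5.42% to 12.6%), or 13.3% and 4.67% after thinning. Hoxb8 was present in 44 of these 53 cells and in 16 of these 22. In the neural class the dorsal list summed to 586 and 580 UMIs (-0.02, -0.19 to 0.15), with 0 of 5 counted genes past 1.5-fold. Of 4 ventral genes counted, 2 were lower by 1.5-fold. These counts stand beside the 5.83% lower and 4.22% higher of all genes in the class. The ventral genes Nkx2-2 (47 and 15 UMIs) and Olig2 (39 and 22 UMIs), which are also markers of the class, had ratios of -1.65 and -0.83, and Nkx6-1 and Ptch1 had ratios of -0.54 and -0.24.

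In the neural cells without a posterior Hox UMI, of which there were 237 and 236, Lfng had 56 UMIs (123 CPM) in the WT library against 37 (71.8 CPM) in KO. The ratio was -0.77 (-1.41 to -0.15). Hes5 had 56 and 34 UMIs there (123 and 66.0 CPM), a ratio of -0.90 (-1.56 to -0.26). In the cells with such a UMI, Lfng had 17 UMIs in 53 WT cells and 1 in 22 KO cells, a ratio of -3.06 (-8.44 to -0.38). Hes5 had 15 and 2 there, a ratio of -1.88 with an interval from -5.05 to 0.23, which holds 0. In the same cells Notch1 had 17 and 1 UMIs, the counts of Lfng, and Hes1 had 11 and 1 (-2.43, -7.86 to 0.35). A cell without a posterior Hox UMI at this depth can still be posterior, and the part of axial level in these ratios was not tested.

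Cells were also divided by the dorsal and ventral gene lists. The 103 WT and 102 KO dorsal cells had 39 and 19 Lfng UMIs (173 and 81.1 CPM), with a ratio of -1.09 (-1.97 to -0.27), and 28 and 12 Hes5 UMIs (124 and 51.2 CPM), with a ratio of -1.28 (-2.39 to -0.26). The 120 WT and 85 KO ventral cells had 28 and 14 Lfng UMIs, a ratio of -0.77 (-1.81 to 0.21), and 32 and 15 Hes5 UMIs, a ratio of -0.86 (-1.85 to 0.07). The dorsal and ventral intervals overlapped for both genes, and the difference between domains was not tested. Notch2 was at 843 and 717 CPM in dorsal cells (-0.23, -0.54 to 0.07) and at 1055 and 656 CPM in ventral cells (-0.69, -1.01 to -0.37). Intermediate cells were too few, with 6 and 4.

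**Figure D3:**
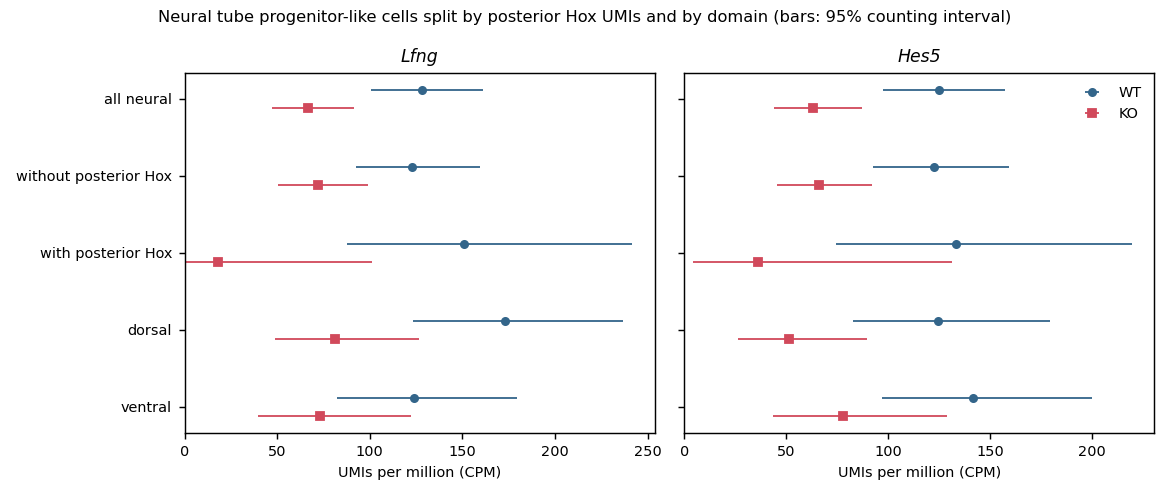
Lfng and Hes5 in CPM (horizontal axis, from 0) in all neural tube progenitor-like cells, in those without and with a posterior Hox UMI, and in dorsal and ventral cells. Circles are WT, squares are KO and bars are exact Poisson intervals of 95%. The KO point lies left of the WT point in every row, from 18.2 against 151 CPM for Lfng with posterior Hox UMIs to 72.9 against 124 CPM in ventral cells.

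Hes1 (chromosome 16, 30064384 to 30067796, plus strand), a repressor and Notch target that also answers to other signals, was the one member with a ratio above 0 over all cells when scaled by total UMIs. Hes5, at -0.06, was at 0.004 and 0.009 under the other scalings. Hes1 had 2058 UMIs (99.0 CPM) in the WT library against 2536 (134 CPM) in KO, a ratio of 0.44 (0.35 to 0.52) or 1.35-fold. It was detected in 14.6% of WT and 19.9% of KO cells, or 9.10% and 11.2% after thinning, beside 8.76% and 10.9% of erythroid-like cells (5.75% and 4.40% after thinning). The list of immediate early and heat shock genes, which can mark handling of the tissue, summed to 211 CPM in WT and 181 CPM in KO. Ier2 held 2633 and 2036 of the 4389 and 3436 UMIs of the list. Of the 8 genes in it with at least 50 UMIs, 6 had ratios below 0, beside 61.1% of all genes (50.4% and 49.5% under the other scalings), while Egr1 (47 and 71 UMIs, 0.73) and Atf3 (65 and 75 UMIs, 0.34) were above 0, and the part of handling in the Hes1 ratio was not tested.

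Under the first gate the Hes1 ratio lay below 0 in 2 of 6 classes, and 1 class, the cardiac muscle-like cells, had an interval above 0. Under the stricter gate it lay below 0 in 1 of 8 classes, with the interval above 0 in 2, the floor plate-like and cardiac muscle-like cells. Migrating NCC-like cells were at -0.24 by the first gate and 0.49 by the stricter one, with intervals that held 0 in both. Floor plate-like cells had 33 UMIs (235 CPM, 162 to 331) in the WT library against 101 (526 CPM, 429 to 639) in KO, a ratio of 1.16 (0.58 to 1.77). A Hes1 UMI was found in 22 of 75 WT cells (29.3%, median 1692 UMIs) and 53 of 86 KO cells (61.6%, median 2082 UMIs), or 22.7% and 45.3% after thinning. This was the highest class of Hes1 in both libraries, with intervals clear of the next class. Of the 10 genes 2 had at least 50 UMIs in these cells, and 1 (Notch2) was lower and 1 (Hes1) higher by 1.5-fold. Among the 1390 genes counted, 4.96% were lower and 7.55% higher. In WT, 4 cells of the class held 39 UMIs of T, a notochord and tail bud gene, and 0 KO cells held any. Without these 4 cells Hes1 was at 251 CPM in WT and the ratio was 1.07 (0.49 to 1.68). Nkx6-1, a ventral neural gene, had 23 and 72 UMIs in the class. Under the first gate, with 39 cells in each library, Hes1 had 11 UMIs in WT and 53 in KO.

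Cardiac muscle-like cells of the stricter gate had 81 Hes1 UMIs (51.6 CPM) in the WT library against 98 (87.2 CPM) in KO, a ratio of 0.76 (0.32 to 1.20). Neural tube progenitor-like cells had 19 and 16 UMIs (0.09, -0.97 to 1.13), and endothelial-like cells 98 and 113 (0.20, -0.20 to 0.61). Whether the classes differ in this ratio was not tested.

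Hey1 (chromosome 3, 8663359 to 8667256, minus strand), a target of Notch in vessels and the heart, was highest in endothelial-like cells. Its intervals overlapped those of the next class in both libraries. Endothelial-like cells held 77 UMIs (74.8 CPM) in the WT library against 60 (62.8 CPM) in KO, a ratio of -0.25 (-0.76 to 0.25). The same cells were the highest for Notch1. Floor plate-like cells of the stricter gate were above them, at 121 and 115 CPM from 17 and 22 UMIs, with overlapping intervals. Over all cells Hey1 had 658 and 558 UMIs, and the ratio was -0.10 (-0.27 to 0.06). Lifr had the profile most like it (r 0.939).

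**Figure D4:**
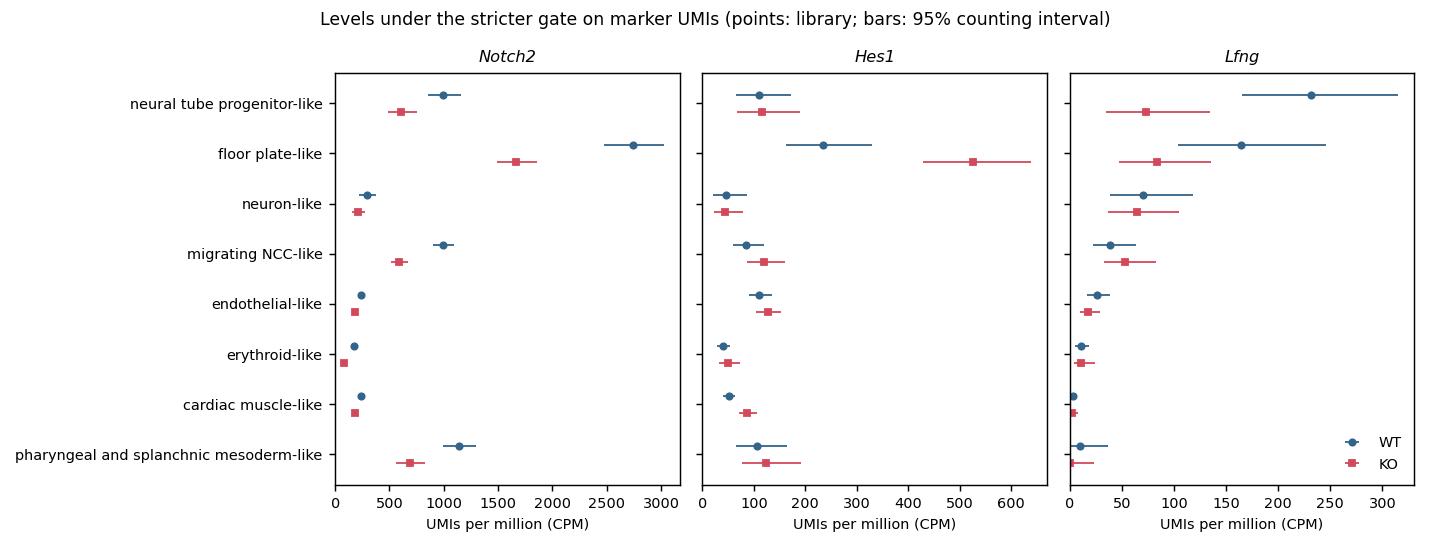
Levels of Notch2, Hes1 and Lfng in CPM (horizontal axis, from 0) in the 8 classes of the stricter gate, with WT as circles, KO as squares and exact Poisson intervals of 95% as bars. Notch2 is highest in floor plate-like cells at 2739 and 1667 CPM, Hes1 is higher in KO there (526 against 235 CPM), and Lfng in neural tube progenitor-like cells is lower in KO (73.0 against 231 CPM).

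The highest class was the same in WT and KO for 6 of 10 genes under the first gate with its 6 classes, and for 9 of 10 under the stricter gate with its 8 classes. Among the 9831 genes with at least 280 UMIs, the total of the sparsest member, it was the same for 46.3% under the first gate and 38.9% under the stricter gate. The highest, second and lowest classes were all the same for 3 of 10 members under each gate, and the highest class stood clear of the next in both libraries for 1 of 10 and 3 of 10. The exception under the stricter gate was Lfng, highest in neural tube progenitor-like cells in WT and in floor plate-like cells in KO, with intervals that overlapped.

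The rest of the pathway was read from fixed lists of 41 measured genes: other ligands and receptors, glycosyltransferases, ligand endocytosis factors, proteases, inhibitors, nuclear factors and other targets. Over all cells 38 of them had at least 50 UMIs. Of these 2 were lower in KO by 1.5-fold and 0 were higher, beside the 3.87% and 1.03% of all genes. Dlk1, an imprinted gene, encodes a membrane protein related to Delta. It had 4436 UMIs (214 CPM) in the WT library against 2406 (127 CPM) in KO, a ratio of -0.75 (-0.82 to -0.68). In neural tube progenitor-like cells Dlk1 had 46 and 56 UMIs (0.28, -0.31 to 0.88). Numb, which encodes an inhibitor that is inherited unequally in dividing cells, had 283 and 171 UMIs and a ratio of -0.59 (-0.88 to -0.31). Numb was at -0.53 under a trimmed mean of log ratios or a median of ratios, within 1.5-fold, so that 1 gene of the 38 (Dlk1) was then lower. Ratios lay below 0 for 33 of the 38 (86.8%), beside 61.1% of all genes, and for 24 and 23 of them (63.2% and 60.5%) under these scalings, beside 50.4% and 49.5% of all genes. The median was -0.10 beside -0.06 over all genes.

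The machinery that reads the signal was close to even. Rbpj, the DNA-binding partner of the receptors, had 2211 and 2009 UMIs and a ratio of -0.004 (-0.09 to 0.08). Mib1, the ligase that lets ligands pull on receptors, had 3463 and 3061 (-0.04, -0.12 to 0.03), and Nrarp, a target that feeds back on the pathway, had 532 and 490 (0.015, -0.17 to 0.20). The other fringe genes had 193 and 155 UMIs (Mfng, -0.18, -0.50 to 0.13) and 252 and 212 UMIs (Rfng, -0.12, -0.39 to 0.15). Ncstn, a subunit of gamma-secretase, had the lowest ratio of the proteases, at -0.39 (-0.49 to -0.29).

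In neural tube progenitor-like cells 18 of the 41 genes were counted, 1 was lower by 1.5-fold and 0 were higher, a share near the 5.83% and 4.22% of all genes there. Their median was -0.12 beside -0.004 over all genes of the class. The gene past 1.5-fold was Aph1a, another subunit of gamma-secretase, at 50 and 32 UMIs (-0.65, -1.34 to 0.02). Over all cells Neurod1, a proneural gene of the kind that Notch targets repress, was past 1.5-fold, with 265 WT against 363 KO UMIs, at a ratio of 0.59 (0.36 to 0.82).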

How the data were processed

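Single-cell 3′ transcriptomes of 2 libraries were analysed, 1 per genotype. Per the labels and methods, the authors used Cell Ranger 1.3.1 with mm10 in their processing notes, although the methods name a human genome with the reporter, kept cells with 200 to 6000 UMIs, removed mitochondrial and ribosomal UMIs and removed doublets, with no word on whether this preceded deposit. No doublet caller was run here. The deposited values are a signal: the square root of each UMI count divided by the total of its cell and multiplied by 1641. Squares were divided by the smallest nonzero square of the cell, and 100% of nonzero values then came out whole within 0.01. GENCODE vM21 (GRCm38) gave positions and holds 17917 of the 18131 symbols.

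UMIs were summed per library and class (Python 3.11.15, numpy 2.4.6, scipy 1.17.1; figures with matplotlib 3.10.9). Levels carry exact Poisson, shares Clopper-Pearson and ratios exact conditional intervals of 95%. Where neither library exceeded 3 UMIs, the ratio was left out. Cells thinned to 1000 UMIs leave out 1361 WT and 125 KO cells. Genes with at least 50 UMIs over both libraries were counted against 1.5-fold. The ratio and its interval were tried on simulated Poisson totals per gene, the model that the interval assumes. The simulation held no gating and no spread between cells or embryos, so it cannot show how the intervals do under these. Other scalings, cell weights, gates and limits were tried. The members, lists and tests were chosen with earlier results of these data known. All 10 members are named, with those genes of the wider lists past 1.5-fold (at most 3 per list) and, per member, the 3 genes of at least 200 UMIs with the most similar log2(CPM + 10) over classes and libraries. Other genes named, among them Rbpj, Mib1, Nrarp, Ncstn, Hoxb9, T and the other fringe genes, were picked after their values were seen. A few genes that these rules name are not reported here.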

Additional observations from a re-analysis of the deposited data

Results flagged for a closer look

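The log2 ratio of KO over WT of Lfng had opposite signs in classes of the first gate, with intervals clear of 0 on both sides. It was 1.82 in neuron-like cells (4 UMIs in WT and 17 in KO), -0.95 in neural tube progenitor-like cells (73 and 38 UMIs) and -0.56 in cardiac muscle-like cells (129 and 92 UMIs). The difference was not tested, since each genotype had 1 library. In neuron-like cells the UMIs came from 3 of 95 WT cells and 12 of 88 KO cells. Under the stricter gate the neuron-like cells held 14 UMIs in 7 of 111 WT cells and 16 UMIs in 11 of 109 KO cells, and the ratio was -0.12. The cardiac muscle-like cells of that gate held 5 and 3 Lfng UMIs, so the UMIs counted under the first gate lay mostly in cells that the stricter gate does not call cardiac.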

How the results depend on the processing

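No paired analysis was possible because each genotype had 1 library, and for the same reason no library could be left out. Over all cells the Notch2 ratio was -0.62 under a trimmed mean of log ratios and -0.62 under a median of ratios, -0.73 as a mean over cells and -0.83 with cells thinned to 1000 UMIs, beside -0.68. Thinning also gave 0.021 for Notch3 and 0.32 for Hes1, beside -0.09 and 0.44. In neural tube progenitor-like cells the stricter gate, added after the data were seen, gave -0.72 for Notch2, -0.50 for Notch3 and -1.66 for Lfng, beside -0.49, 0.15 and -0.95. Hes5 there was at -0.40 with thinned cells and -0.49 at a lead of 1 marker, beside -0.98, and was then within 1.5-fold. At 2-fold in place of 1.5-fold, 0 members were lower over all cells and 0 in neural cells, beside 1 and 2. The Jag1 ratio in cardiac muscle-like cells was 0.12 under the stricter gate and -0.28 under the first, which took in many cells with few cardiac UMIs. Among values under other settings, 110 that answer a comparison and 227 others stayed within the counting interval or count limit of the reported value. Another 11 and 12 did not, and the Jag1 value above, counted apart, changed sign. Those that did not stay include sign changes of the Notch3 values above and of Hes1 in migrating NCC-like cells (-0.24 and 0.49). Some values that stayed changed sign too, among them Hes5 over all cells, at -0.06 and at 0.017 with thinned cells. Scalings moved the ratios of a class by at most 0.081. Depth limits the sparse members: Dll1 and Dll3 had fewer than 50 UMIs in most classes.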

Other observations

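Transcripts of the presomitic segmentation clock were scarce in both libraries. Hes7, a clock gene and Notch target of presomitic mesoderm, had 23 UMIs in WT and 7 in KO over all cells, with a log2 ratio of -1.58 (-3.05 to -0.32), and T had 193 and 51 UMIs (-1.79, -2.26 to -1.33). Other genes of the tail bud and presomitic list did not all go this way, with 12 and 17 UMIs of Tbx6 (0.64, -0.52 to 1.84), 88 and 93 of Cdx1 (0.21, -0.22 to 0.65), 35 and 28 of Nkx1-2 (-0.19, -0.96 to 0.57), 13 and 1 of Cdx2, 4 and 4 of Mesp2, and 2 and 3 of Ripply2. In somite-like cells of the stricter gate, 73 in WT and 44 in KO, Lfng had 4 and 3 UMIs and Dll1 had 4 and 2. Hes1 in 27 WT and 21 KO pharyngeal endoderm-like cells had 5 UMIs (82.8 CPM, 26.9 to 193) and 17 UMIs (270 CPM, 157 to 432), and in 31 and 28 placode-like cells 11 UMIs (137 CPM) and 24 UMIs (277 CPM). These classes were too small to be compared, and the genes were picked after their values were seen.

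Genes with profiles most like those of the members, over 12 points of 6 classes in 2 libraries that share depth and free RNA within a library, were Ssh2, Srgap1 and Parp8 for Notch1 (r 0.964, 0.937 and 0.937), Mcrip1 as the last of the 3 for Notch2 (0.951), and Cachd1, Lrp4 and Rnps1 for Notch3 (0.975, 0.959 and 0.959). Those of Dll1 were Dyrk1b, Ogdhl and Ppp6r3 (0.938, 0.937 and 0.927), and those of Jag1 were Zfp354c, Gm16141 and Ptprf (0.953, 0.946 and 0.934). Lage3, Lrp4 and Mccc1 were most like Hes1 (0.959, 0.938 and 0.938), Epb41l5 and Suds3 most like Hes5 (0.925 and 0.921), Golm1, Cnih2 and Casc3 most like Lfng (0.872, 0.867 and 0.861), and Itpr1 and Vim followed Lifr for Hey1 (0.936 and 0.935).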
